A study of Homo sapiens with 42 samples.

Results

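The genes described here are those of the G1 cyclins, the kinases they activate and the inhibitors of those kinases. They were taken by name as CCND1, CCND2, CCND3, CCNE1, CCNE2, CDK4, CDK6, CDKN1A, CDKN1B and CDKN2C, and all 10 were found among the 58243 gene IDs of the count tables. K562 is an established human line from chronic myeloid leukaemia that carries the BCR-ABL1 fusion kinase, and it is 1 line from 1 donor. The cells were untreated (CTRL), exposed to 1 μM imatinib (IM), which inhibits that kinase, exposed to 5 μM JTE-607 (JTE), which inhibits the 3′-end cleavage nuclease CPSF73, or stressed with 110 mM KCl. Poly(A) mRNA was sequenced from CTRL, IM 1h, IM 6h, IM 18h, JTE 1h, JTE 6h, JTE 18h, KCl 1h and KCl 3h. Nuclear RNA without ribosomal RNA was sequenced from CTRL, IM 1h, IM 18h, JTE 1h and KCl 1h. Each of these 14 groups had 3 biological replicates, and all groups of a fraction share the same 3 CTRL libraries. The labels give CTRL no time. In comparisons with CTRL or between times, treatment and time in culture therefore cannot be told apart.

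Cells commit to a new round of division in G1. D-type cyclins rise with growth signals and activate CDK4 and CDK6, E-type cyclins then activate CDK2, and both kinase activities phosphorylate the retinoblastoma protein so that E2F factors are released to switch on genes of DNA synthesis. CDKN2C (p18) belongs to the INK4 inhibitors, which bind CDK4 and CDK6, whereas CDKN1A (p21) and CDKN1B (p27) belong to the CIP/KIP inhibitors, which bind complexes of cyclin and kinase. In chronic myeloid leukaemia cells BCR-ABL1 signalling is known to maintain D-type cyclin expression and to hold CDKN1B low, and JTE-607 and KCl both disturb the 3′ ends of transcripts.

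Levels are given as CPM, a gene's count scaled to the TMM-normalized size of its library, as mean ± SD of 3 libraries, and differences as log2 fold changes with an approximate SE. A gene counted as called where edgeR's quasi-likelihood test gave a Benjamini-Hochberg adjusted p under 0.05 over all genes tested and the size of the log2 fold change was over 0.6. In each comparison below where edgeR called 0 of the 10 genes, DESeq2 called 0 as well. Library totals lay between 16439848 and 22505595 counts in mRNA except in 2 KCl 1h libraries, the deeper of which reached 62953314, and between 16175394 and 25103205 in nuclear RNA. All 8 K562 marker genes had a mean of at least 1 CPM in every group, while 4 B lymphoid markers summed to at most 6.54 CPM and 4 T lymphoid markers to at most 6.56 CPM in any library. Monocyte markers summed to at most 25.7 CPM, fibroblast markers to 18.9 and megakaryocytic markers to 18.4. Epithelial markers were higher, with sums from 241 to 561 CPM over the libraries. In such bulk samples fewer cells of a type and less RNA per cell cannot be told apart.

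To compare genes with each other, CPM was divided by the merged exon length in kb. In mRNA of CTRL cells CDK4 (32.4 ± 1.09 CPM per kb), CDK6 (29.8 ± 1.12) and CCND2 (28.2 ± 3.98) stood highest, followed by CCND3 (21.6 ± 4.87), CDKN2C (18.5 ± 1.97), CCNE1 (15.4 ± 0.614) and CDKN1B (11.1 ± 1.64). CCNE2 at 3.70 ± 0.416 CPM per kb, CCND1 at 2.00 ± 0.330 and CDKN1A at 0.690 ± 0.0767 were far lower. The libraries of CDK6 and CCND2, of CCND2 and CCND3, and of CCND3 and CDKN2C overlapped, so the order within those neighbouring pairs was not larger than the spread. All other neighbours in that order were separated by every library. That spread does not cover losses particular to a gene. Pairs in exons of more than 1 gene were dropped, and CDK4 shares 43.2% of its exon bases and CCNE2 37.1%. In their canonical transcripts, the only ones checked, CDK6 and CCND2 have introns longer than the authors' alignment allowed. The levels per kb were not corrected for such losses, whose size was not measured. Merged exon length counts the exons of all annotated transcripts of a gene. A gene that expresses a shorter transcript therefore has its level per kb understated. After 18 h of imatinib the order in mRNA had shifted: CDKN2C was first at 35.1 ± 3.92 CPM per kb (overlapping CDK4 at 30.9 ± 2.35), CCND2 seventh at 5.39 ± 0.319, and CCND1 and CDKN1A were last at 0.340 ± 0.0772 and 0.218 ± 0.0174.

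**Figure D1:**
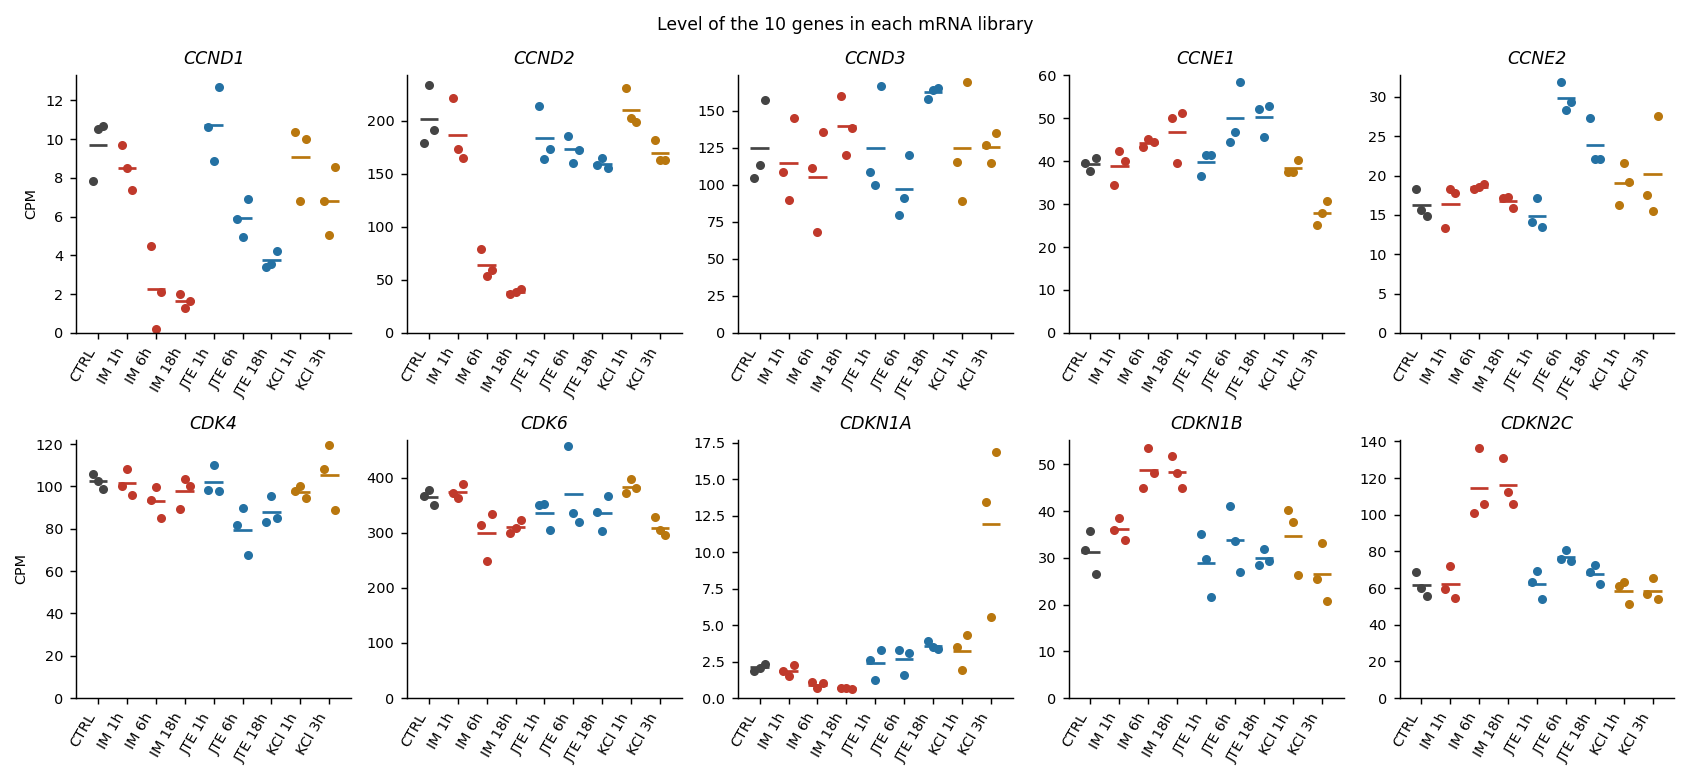
CPM (y axis, linear, from 0) of the 10 genes in each mRNA library, by group along the x axis; points are the 3 libraries and bars their mean. The 6 libraries of IM 6h and IM 18h were the lowest for CCND2 and the highest for CDKN1B and CDKN2C, and CDKN1A reached 16.9 CPM in a KCl 3h library.

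The first question was how these mRNAs differed from CTRL at each time of imatinib. At 1 h 0 of the 10 mRNAs were called, with log2 fold changes from -0.19 to 0.21 and 0 at an unadjusted p under 0.05 (edgeR). The background was 0.0166% of all 18095 genes tested. By 6 h 4 of the 10 were called, against 9.94% of all genes: CCND1 and CCND2 fell, and CDKN1B and CDKN2C rose. By 18 h 5 of the 10 were called, against 30.5% of all genes, with the fall of CDKN1A added to those 4. The median log2 fold change of the 10 genes was -0.20 at 6 h and -0.01 at 18 h, beside 0.04 for all genes at both times.

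CCND2 was the D-type cyclin with the highest mean in CTRL, though its libraries overlapped those of CCND3 per kb, and it fell at both later times of imatinib. CCND2 (ENSG00000118971, hg38 chromosome 12, 4273772 to 4305350, plus strand) encodes cyclin D2. Its mRNA measured 179, 234 and 192 CPM in the CTRL libraries and 222, 173 and 165 CPM after 1 h of imatinib, so these groups overlapped. It dropped to 78.8, 53.8 and 58.9 CPM at 6 h and to 36.3, 38.4 and 40.9 CPM at 18 h. Every library of IM 6h lay below every CTRL library, and every library of IM 18h below those of IM 6h. CCND2 was 3.16-fold lower at 6 h (a log2 fold change of -1.66 with an SE of 0.14; edgeR adjusted p 9.5e-08) and 5.23-fold lower at 18 h (-2.39, SE 0.14; edgeR adjusted p 4.8e-11). The step from 6 h to 18 h was itself called, at a log2 difference of -0.73 (SE 0.14, edgeR adjusted p 0.0024), and CCND2 was the only one of the 10 genes for which it was, in a comparison that called 4.41% of all genes. Without IM 6h replicate 1, the highest library of its group, that step measured -0.55 and fell short of the fold threshold. One of the 4 introns of CCND2 is 10869 bases long, beyond the 10000 bases the authors' alignment allowed, so a splice across that junction was not allowed; the loss of pairs was not measured.

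CCND1 (ENSG00000110092, chromosome 11, 69641087 to 69654474, plus strand), which encodes cyclin D1, was a minor transcript in these cells. It measured 7.83, 10.5 and 10.6 CPM in CTRL, then 4.48, 0.203 and 2.09 CPM at IM 6h and 2.01, 1.26 and 1.65 CPM at IM 18h. The treated libraries lay below all CTRL libraries at both times, but the IM 6h libraries differed widely and replicate 2 of that group held only 4 counts. The log2 fold change was -2.07 at 6 h (SE 0.44, edgeR adjusted p 0.0021) and -2.56 at 18 h (SE 0.46, edgeR adjusted p 0.00011). Leaving out IM 6h replicate 1, the highest of the 3, moved the 6 h value to -3.12, leaving out replicate 2, the lowest, moved it to -1.57, and fitting only the IM 6h and CTRL libraries raised its adjusted p to 0.101. CCND1 shares 10.3% of its exon bases with LTO1 on the other strand, and pairs in both genes were dropped from the counts. LTO1 itself was not called in any comparison.

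CCND3 (ENSG00000112576, chromosome 6, 41934933 to 42050357, minus strand), for cyclin D3, did not pass the test at any time of imatinib. Its mRNA measured 105, 113 and 157 CPM in CTRL, 112, 68.3 and 136 CPM at IM 6h, and 160.1, 120.4 and 138 CPM at IM 18h, with overlap each time. The log2 fold changes were -0.25 at 6 h (SE 0.25) and 0.16 at 18 h (SE 0.25).

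The D-type cyclin pool therefore differed in makeup between the groups. Per kb of exon, CCND2 made up 54.6% ± 6.29 of D-type cyclin mRNA in CTRL (SD, n = 3), CCND3 41.5% ± 6.29 and CCND1 3.85% ± 0.204. At IM 18h CCND3 made up 80.6% ± 2.49 and CCND2 18.3% ± 2.61. The shares were not corrected for pairs lost at the long CCND2 intron or in the exon bases CCND1 shares with LTO1. They also rest on merged exon lengths, which can exceed those of the transcripts expressed, for CCND3 as well. The summed level of the 3 genes was 51.8 ± 6.13 CPM per kb in CTRL, 27.5 ± 7.12 at IM 6h and 29.8 ± 3.35 at IM 18h, and the treated libraries, at most 33.1, lay below the lowest CTRL library at 44.7. In nuclear RNA the same shares were 64.5% ± 1.88 for CCND2 in CTRL and 23.6% ± 4.07 at IM 18h.

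**Figure D2:**
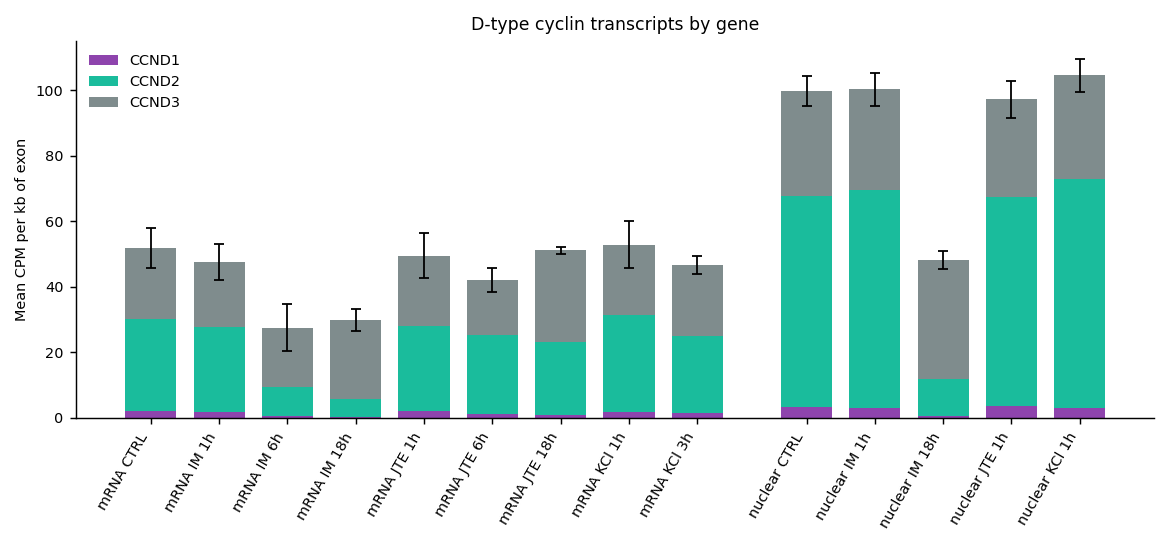
Mean level of the 3 D-type cyclin genes in CPM per kb of exon (y axis, from 0) for each mRNA and nuclear RNA group; colours are the genes and the error bar is the SD of their sum over 3 libraries. The 2 fractions were normalized separately. The CCND2 share of the bar shrank from 54.6% in mRNA CTRL to 18.3% at IM 18h.

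The inhibitors CDKN2C and CDKN1B moved the other way. CDKN2C (ENSG00000123080, chromosome 1, 50960745 to 50974633, plus strand) measured 68.6, 60.2 and 55.7 CPM in CTRL, 101, 137 and 106 CPM at IM 6h and 131, 113 and 106 CPM at IM 18h. All 6 libraries of those times lay above all CTRL libraries. It was 1.86-fold higher at 6 h, a log2 fold change of 0.90 with an SE of 0.13 (edgeR adjusted p 6.1e-05), and 1.89-fold higher at 18 h, 0.92 with an SE of 0.13 (edgeR adjusted p 7.0e-06). The log2 difference between the times was 0.02 (SE 0.13).

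CDKN1B (ENSG00000111276, chromosome 12, 12715058 to 12722371, plus strand) encodes p27, which binds and restrains cyclin E and CDK2. It measured 31.7, 35.7 and 26.5 CPM in CTRL, 44.9, 53.6 and 48.1 CPM at IM 6h and 51.9, 48.2 and 44.8 CPM at IM 18h, again without overlap. The log2 fold changes were 0.64 at 6 h (SE 0.18, edgeR adjusted p 0.019) and 0.62 at 18 h (SE 0.18, edgeR adjusted p 0.0082), both just past the fold threshold. Both calls rested on single libraries. The 6 h call was lost when replicate 1 or 3 of CTRL, or replicate 2 or 3 of the treated group, was left out (values from 0.50 to 0.65), and the 18 h call without CTRL replicate 3 (0.48) or IM 18h replicate 1 (0.57).

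CDKN1A (ENSG00000124762, chromosome 6, 36676460 to 36687339, plus strand) encodes p21, the best known p53 target among CDK inhibitors. Unlike the other inhibitors it fell, from a low level: 1.87, 2.10 and 2.34 CPM in CTRL, 1.08, 0.659 and 1.05 CPM at IM 6h, and 0.706, 0.684 and 0.605 CPM at IM 18h. These values rest on 34 to 42 counts per CTRL library and 11 to 13 counts per IM 18h library, and no treated library of either time overlapped CTRL. The 18 h change was called at -1.65 (SE 0.44, edgeR adjusted p 0.0040). At 6 h it was -1.17 (SE 0.42, edgeR adjusted p 0.057) and so missed the call, which DESeq2 made (adjusted p 0.030; 0.0031 to 0.030 over the 5 alternative fits that called it). With the replicate number as a block and the numbers of CTRL 1 and 2 exchanged, an alternative chosen after seeing the data, it was -1.19 (edgeR adjusted p 0.0033).

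RefSeq promoter windows of 300 bases on GRCh38.p14, from 250 before to 50 after a transcript start, were searched on both strands for E2F sites (TTTGGCGC, TTTCCCGC, TTTGGCGG, TTTCCCGG or GCGCGAAA), the MYC E-box CACGTG, the STAT motif TTCNNNGAA, the FOXO motifs TGTTTAC and TGTTTGC, the GC box GGGCGG and the CRE TGACGTCA. In all 35116 windows the shares were 4.77% for E2F, 7.26% for the E-box, 7.66% for STAT, 7.17% for FOXO, 45.0% for the GC box and 1.85% for the CRE. For 7 of the 10 genes 12 windows were searched. CCND1 and CCND2 had no window, so the matches below do not cover them. The GC box was in 9 of the 12 windows, the E-box in 4 and a FOXO motif in 1, a CCND3 window, and the letters searched for E2F, STAT and CRE were in 0. Overlapping matches were each counted, and no E2F, STAT or CRE match was there to overlap the others. The windows of the 3 inhibitors are printed because these genes changed with imatinib in both directions, with GC boxes in capitals, in the direction of transcription. That of CDKN2C (chr1:50968456-50968755, plus strand), which rose, held 6 GC boxes, of which the 2 farthest from the start overlapped. That of CDKN1B (chr12:12717118-12717417, plus strand), which rose less, held 1. That of CDKN1A (chr6:36678464-36678763, plus strand), which fell, held 4. The 2 other CDKN2C windows each held 1 E-box, and they held 1 GC box (chr1:50969995-50970294) and 0 (chr1:50960495-50960794). Any link between the number of GC boxes and the response was not tested.
CDKN2C: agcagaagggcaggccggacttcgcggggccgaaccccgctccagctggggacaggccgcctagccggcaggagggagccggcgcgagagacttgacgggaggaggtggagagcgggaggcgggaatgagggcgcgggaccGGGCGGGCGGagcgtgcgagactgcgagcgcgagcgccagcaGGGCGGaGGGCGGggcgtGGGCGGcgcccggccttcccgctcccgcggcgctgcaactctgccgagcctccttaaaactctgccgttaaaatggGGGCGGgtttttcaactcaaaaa
CDKN1B: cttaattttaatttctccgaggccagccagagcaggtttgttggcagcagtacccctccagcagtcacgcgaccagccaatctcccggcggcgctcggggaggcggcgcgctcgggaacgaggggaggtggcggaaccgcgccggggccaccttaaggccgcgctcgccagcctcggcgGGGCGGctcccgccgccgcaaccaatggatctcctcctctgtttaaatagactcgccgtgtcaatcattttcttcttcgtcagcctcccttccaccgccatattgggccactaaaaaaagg
CDKN1A: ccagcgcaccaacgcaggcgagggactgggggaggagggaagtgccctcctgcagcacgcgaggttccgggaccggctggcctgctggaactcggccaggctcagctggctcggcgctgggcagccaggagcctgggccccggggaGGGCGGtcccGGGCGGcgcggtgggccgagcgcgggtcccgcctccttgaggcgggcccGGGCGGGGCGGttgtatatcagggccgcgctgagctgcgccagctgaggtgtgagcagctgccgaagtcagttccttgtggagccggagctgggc

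CDK4 and CDK6, the kinases that D-type cyclins activate, were never called in any of the 21 comparisons. CDK4 (ENSG00000135446, chromosome 12, 57747727 to 57756013, minus strand) measured 106, 103 and 99.0 CPM in CTRL and 89.4, 104 and 100.2 CPM at IM 18h, which overlapped (log2 fold change -0.07, SE 0.11). Its lowest mRNA value was at JTE 6h, with 81.8, 89.8 and 67.4 CPM, all below CTRL, where the log2 fold change of -0.36 (SE 0.11, edgeR adjusted p 0.019) stopped short of the fold threshold. CDK4 shares 1369 exon bases, 43.2% of its total, with TSPAN31 on the other strand, and counting used no strand. TSPAN31 rose in the same groups, by 1.36 on the log2 scale at JTE 6h (edgeR adjusted p 0.0021) and by 1.14 at JTE 18h (edgeR adjusted p 0.019), and its part in the CDK4 value was not tested. The promoter window of CDK4 is shown because it was the only one of the 12 with 3 E-boxes, given in capitals (chr12:57752261-57752560, minus strand, printed in the direction of transcription).
CDK4: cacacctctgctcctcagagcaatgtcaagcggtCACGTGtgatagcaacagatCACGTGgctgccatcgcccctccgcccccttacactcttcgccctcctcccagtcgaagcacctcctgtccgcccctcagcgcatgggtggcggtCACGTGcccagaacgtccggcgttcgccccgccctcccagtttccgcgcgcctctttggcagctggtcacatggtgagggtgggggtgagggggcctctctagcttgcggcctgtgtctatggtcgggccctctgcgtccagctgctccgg

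CDK6 (ENSG00000105810, chromosome 7, 92604921 to 92836594, minus strand) had the highest CPM of the 10 genes in mRNA, at 366, 378 and 350.4 in CTRL. It measured 314, 248.5 and 334.5 CPM at IM 6h and 299.7, 309 and 322 CPM at IM 18h. All 6 lay below CTRL, yet the log2 fold changes of -0.29 (SE 0.11, edgeR adjusted p 0.088) and -0.23 (SE 0.11, edgeR adjusted p 0.10) did not pass the test. Of its 7 introns 4 exceed 10000 bases, the longest 58259, beyond what the alignment allowed, and how many pairs were lost was not measured.

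The E-type cyclins were not called under imatinib. CCNE1 (ENSG00000105173, chromosome 19, 29811898 to 29824308, plus strand) measured 39.7, 37.7 and 40.8 CPM in CTRL and 50.01, 39.5 and 51.2 CPM at IM 18h, with overlap (log2 fold change 0.25, SE 0.12, edgeR adjusted p 0.082). CCNE2 (ENSG00000175305, chromosome 8, minus strand) measured 18.4, 15.6 and 14.9 CPM in CTRL and 17.2, 17.3 and 15.9 CPM at IM 18h (0.04, SE 0.17). Per kb of exon CCNE1 made up 80.7% ± 1.84 of E-type cyclin mRNA in CTRL and 82.6% ± 2.60 at IM 18h. These shares use full exon lengths, although 37.1% of the exon bases of CCNE2 and 0% of those of CCNE1 are shared with other genes. Pairs there were dropped, so the CCNE2 share may be too low.

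**Figure D3:**
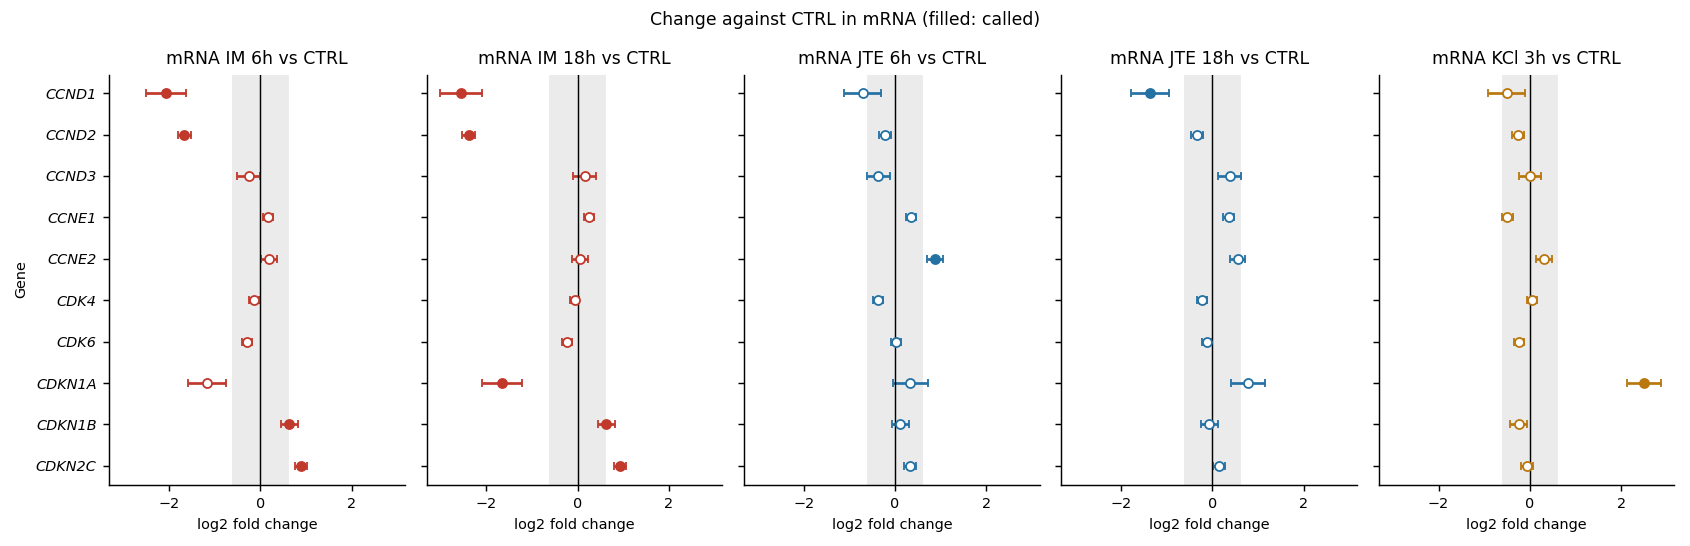
Log2 fold change against CTRL in mRNA (x axis) with its SE for the 10 genes (y axis) at IM 6h, IM 18h, JTE 6h, JTE 18h and KCl 3h; filled points were called and the grey band marks values within 0.6 of 0. Filled points number 4 at IM 6h, 5 at IM 18h and 1 in each other panel.

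JTE-607 addressed whether the same genes respond when 3′-end cleavage is inhibited. At JTE 1h 0 of the 10 mRNAs were called (0 at an unadjusted p under 0.05 by edgeR), against 0.851% of all genes. At JTE 6h 1 was called, against 13.2% of all genes, and it was CCNE2. Cyclin E2 mRNA measured 31.9, 28.4 and 29.3 CPM there, above all CTRL libraries, a 1.83-fold rise (log2 fold change 0.88, SE 0.17, edgeR adjusted p 0.00055). At JTE 18h it measured 27.4, 22.1 and 22.1 CPM, still above CTRL, and the log2 fold change of 0.55 (SE 0.17, edgeR adjusted p 0.042) fell short of the fold threshold. CCNE2 shares 37.1% of its exon bases with other genes on the other strand, mainly INTS8, whose own log2 fold change at JTE 6h was 0.07 (SE 0.14). CCNE1 at JTE 6h measured 44.4, 46.9 and 58.5 CPM, without overlap with CTRL, and its log2 fold change of 0.34 (SE 0.12, edgeR adjusted p 0.039) was also short of the threshold.

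At JTE 18h 1 of the 10 genes was called, against 5.39% of all genes, and it was CCND1. Cyclin D1 mRNA measured 5.89, 4.95 and 6.90 CPM at JTE 6h and 3.40, 3.57 and 4.24 CPM at JTE 18h, below all CTRL libraries both times. Only the later value was called (-1.37, SE 0.42, edgeR adjusted p 0.042; at 6 h -0.71, SE 0.41), and it was not called when any 1 of the 6 libraries was left out (log2 fold changes from -1.50 to -1.30). CDKN1A at JTE 18h measured 3.90, 3.51 and 3.35 CPM, all above CTRL, and was not called (0.77, SE 0.37, edgeR adjusted p 0.22), but was called with either replicate block and with only the 2 groups (edgeR adjusted p 0.028 to 0.047). Cyclin D2 measured 158, 165 and 155 CPM at JTE 18h (-0.34, SE 0.13, edgeR adjusted p 0.12). Cyclin D3 was at 79.6, 91.0 and 120.2 CPM at JTE 6h and at 158, 164 and 166 CPM at JTE 18h, where all 3 libraries exceeded the highest CTRL value of 157 CPM. The difference between these times was called for CCND3 alone, at a log2 difference of 0.75 (SE 0.25, edgeR adjusted p 0.036), in a comparison that called 13.4% of all genes. Its call was kept only without JTE 6h replicate 3, and lost without each of the other 5 libraries (log2 differences from 0.62 to 0.79).

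Imatinib and JTE-607 were also compared directly at matched times. At 6 h 4 of the 10 genes were called, against 23.8% of all genes, each lower with imatinib: CCND1 (log2 difference -1.36, SE 0.44), CCND2 (-1.44, SE 0.14), CCNE2 (-0.69, SE 0.17) and CDKN1A (-1.51, SE 0.41). The values of 0.53 for CDKN1B and 0.57 for CDKN2C had adjusted p of 0.027 and 0.0015 by edgeR but were short of the fold threshold. At 18 h 5 of 10 were called, against 30.3% of all genes. CCND1 (-1.19, SE 0.47), CCND2 (-2.05, SE 0.14) and CDKN1A (-2.42, SE 0.43) were lower with imatinib, and CDKN1B (0.69, SE 0.18) and CDKN2C (0.78, SE 0.13) were higher. The CCND1 differences were the weakest. That at 18 h was lost without any 1 of the 6 libraries (adjusted p 0.0587 to 0.129, edgeR), and that at 6 h was lost without IM 6h replicate 3 or JTE 6h replicate 3 and moved to -2.39 without IM 6h replicate 1 and to -0.84 without IM 6h replicate 2.

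Under KCl the p21 gene stood out. At KCl 1h 0 of 10 mRNAs were called (0 at an unadjusted p under 0.05 by edgeR), against 5.45% of all genes. At KCl 3h 1 of 10 was called, CDKN1A, against 11.9% of all genes. CDKN1A measured 3.52, 1.93 and 4.33 CPM at KCl 1h and 13.5, 5.53 and 16.9 CPM at KCl 3h, against 1.87, 2.10 and 2.34 CPM in CTRL. The KCl 1h libraries overlapped CTRL, and all KCl 3h libraries lay above both groups, with replicate 2 the lowest KCl library at each time. The rise at 3 h was 5.67-fold (2.50 on the log2 scale with an SE of 0.37; edgeR adjusted p 2.6e-05), and the step from 1 h to 3 h was 1.89 (SE 0.34, edgeR adjusted p 0.0012) in a comparison that called 3.29% of all genes. CCNE1 went down, from 39.4 ± 1.57 CPM to 25.1, 27.8 and 30.8 CPM at KCl 3h, all below CTRL, and its log2 fold change of -0.50 (SE 0.12, edgeR adjusted p 0.0038) was within the fold threshold. CDKN1A made up 5.94% ± 1.37 of the summed CIP/KIP mRNA of CDKN1A and CDKN1B per kb in CTRL, 29.6% ± 15.0 at KCl 3h and 1.25% ± 0.0343 at IM 18h.

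Nuclear RNA was used to ask whether the same differences were present in RNA that had not left the nucleus. At IM 18h 4 of the 10 genes were called in nuclear RNA, against 32.6% of all 21929 genes tested. CCND2 measured 485, 461 and 436 CPM in nuclear CTRL and 71.8, 101 and 71.4 CPM at IM 18h, a 5.65-fold fall (-2.50, SE 0.12, edgeR adjusted p 1.8e-11). CCND1 measured 19.9, 16.9 and 9.85 CPM in CTRL and 1.59, 3.87 and 2.16 CPM at IM 18h (-2.62, SE 0.38, edgeR adjusted p 7.15e-05). CDKN1A measured 5.18, 3.83 and 2.38 CPM and 0.980, 1.10 and 0.761 CPM (-1.99, SE 0.47, edgeR adjusted p 0.0027). CDKN2C rose from 70.8, 76.9 and 82.6 CPM to 139.6, 135 and 142 CPM (0.86, SE 0.10, edgeR adjusted p 9.35e-07). In none of these 4 did the groups overlap. CDKN1B, at 28.6, 25.6 and 27.2 CPM in CTRL and 40.9, 36.9 and 40.0 CPM at IM 18h, passed on p (edgeR adjusted p 0.00024) and not on size (0.53, SE 0.10). In all, 6 of the 10 had an edgeR adjusted p under 0.05. This count is not comparable with the 32.6%, which also required the fold threshold, and the share of all genes on p alone was not taken. CDK4 was at 104 to 112 CPM, below nuclear CTRL at 119 to 139 (ratio of means 0.838). CDK6 was at 288 to 357 CPM, below CTRL at 366 to 491 (ratio 0.800), and neither kinase was called.

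The differences between the nuclear and the mRNA response at IM 18h ranged from -0.28 for CDKN1A (SE 0.45) to 0.07 for CCND3 (SE 0.20), and 0 of 10 were called, with 0 at an unadjusted p under 0.05 in edgeR; 0.0901% of all genes were. For CCND2 the difference was -0.06 with an SE of 0.19, and for CCND1 -0.01 with an SE of 0.52, so gaps of a size that could be measured for the first were within the error of the second.

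**Figure D4:**
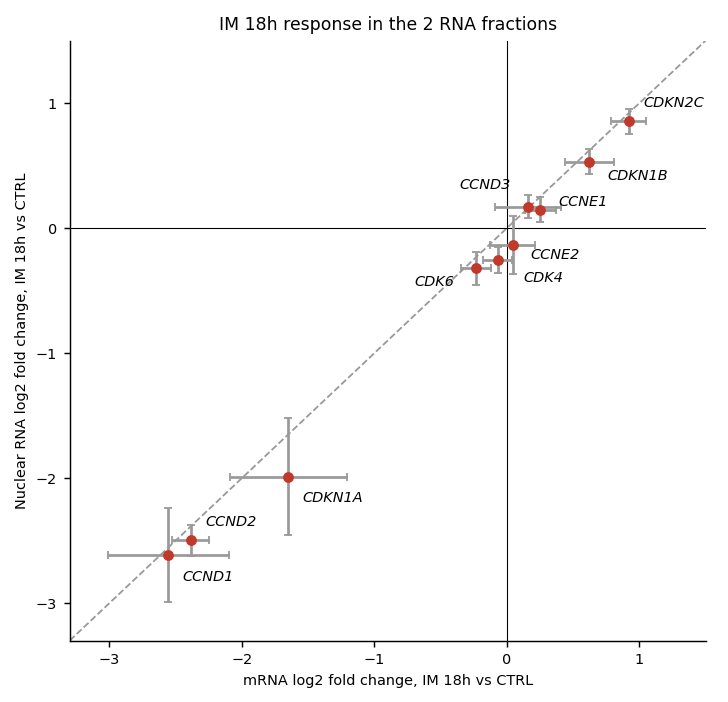
Log2 fold change at IM 18h against CTRL in nuclear RNA (y axis) and in mRNA (x axis) for the 10 genes, with the SE of each as bars; the dashed line marks equal values. CCND1 lies at -2.56 in mRNA and -2.62 in nuclear RNA, and CDKN2C at 0.92 and 0.86.

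At 1 h the nuclear RNA of these genes showed little. For IM 1h 0 of 10 were called and 1, CDKN1B, had an unadjusted p under 0.05 in edgeR (log2 fold change 0.23, SE 0.10, adjusted p 0.88), against 0.0456% of all genes. For JTE 1h 0 of 10 were called (0 at an unadjusted p under 0.05, edgeR), against 8.52% of all genes. For KCl 1h 0 of 10 were called (0 at an unadjusted p under 0.05, edgeR), against 23.8% of all genes. CDKN1A at KCl 1h measured 7.89, 6.38 and 3.40 CPM in nuclear RNA, each above the CTRL library of the same number at 5.18, 3.83 and 2.38 CPM. The same-numbered nuclear libraries deviated together, and with the replicate number as a block CDKN1A was called there (log2 fold change 0.63, edgeR adjusted p 0.0021, against 0.62 and 0.28 without the block). Differences between the nuclear and the mRNA response gave 0 calls among the 10 genes at IM 1h, JTE 1h and KCl 1h, and 0 at an unadjusted p under 0.05 (edgeR), where 0%, 0.0605% and 0.668% of all genes were called.

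**Figure D5:**
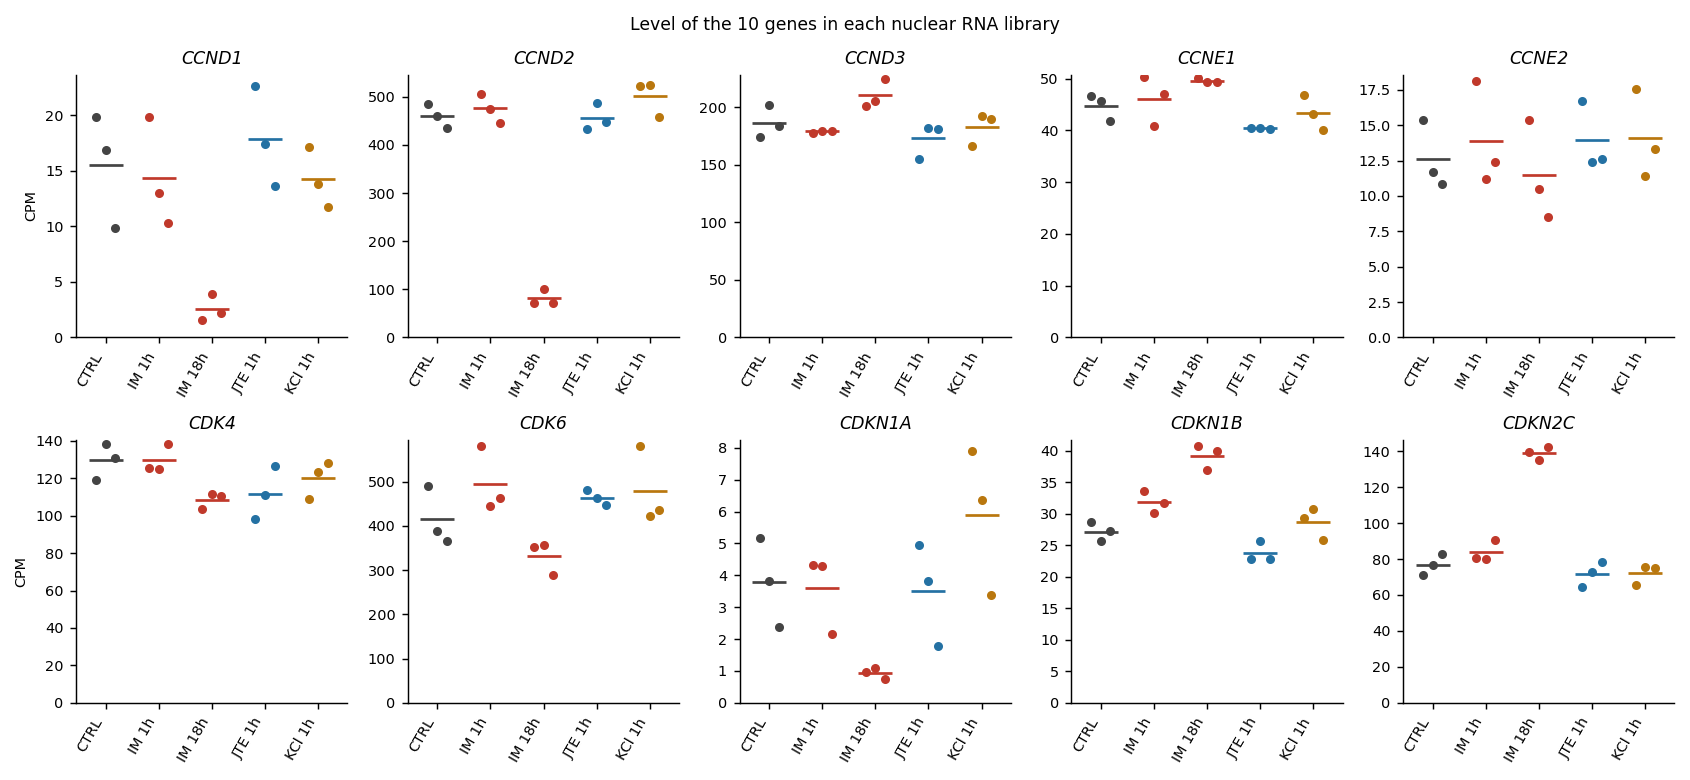
CPM (y axis, linear, from 0) of the 10 genes in each nuclear RNA library, by group along the x axis; points are the 3 libraries and bars their mean. The IM 18h libraries of CCND1, CCND2 and CDKN1A lie below all others and those of CDKN2C above all others.

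The other genes of the pathway gave context. Of 5 further CDK inhibitors 3 were tested, and 1 was called at IM 18h, against 30.5% of all genes. The median log2 fold change of the 3 was -0.11. The 1 called was CDKN1C (p57), the remaining CIP/KIP gene. It went from 6.08 ± 1.59 CPM in CTRL to 24.4 ± 6.65 at IM 6h and 21.5 ± 8.80 at IM 18h, where its log2 fold change was 1.82 (SE 0.31, edgeR adjusted p 5.5e-05). CDKN2A held 1 count in all 42 libraries together and CDKN2B held 0, which allows up to 3 counts per library or 0.185 CPM in the smallest library for CDKN2B, counting error only. Of 13 RB and E2F genes, at IM 18h 1 was higher, RBL2 (0.84, SE 0.19), and 2 were lower, E2F6 (-0.74, SE 0.17) and E2F5 (-0.61, SE 0.16), with a list median of 0.15 beside 0.04 for all genes. These 3 of 13 compare with 30.5% of all genes called. At JTE 6h E2F4 was the 1 called, at -0.68 (SE 0.13), where 13.2% of all genes were.

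Among 11 tested genes of other interphase cyclins and kinases, 1 rose and 1 fell at IM 18h, a smaller share than the 30.5% of all genes. CCNG2, an atypical cyclin, measured 2.58 ± 2.21 CPM in CTRL and 9.18 ± 3.26 at IM 18h (log2 fold change 1.82, SE 0.63), and CCNH, a partner of CDK7, went from 88.8 ± 5.62 to 51.8 ± 1.76 CPM (-0.78, SE 0.15). CCNG2 was also the 1 called at KCl 3h (1.95, SE 0.63), and CCNH the 1 called at JTE 6h (-0.66, SE 0.15), against 11.9% and 13.2% of all genes. Of 14 transcription factors known to act on these genes, 4 were higher and 3 lower at IM 18h, against 30.5% of all genes called, with a median of 0.30 beside 0.04 for all genes. FOXO3, which activates CDKN1B, rose from 37.7 ± 9.80 to 101.8 ± 18.6 CPM (1.43, SE 0.21), and TP73 rose by 1.37 (SE 0.38). MYC, which activates CCND2 and represses CDKN1A, went from 292 ± 70.7 to 97.7 ± 14.2 CPM (-1.58, SE 0.29), and JUN, which activates CCND1, fell by 1.39 (SE 0.28). At KCl 3h JUN rose instead, from 19.8 ± 4.61 to 182 ± 51.3 CPM (3.20, SE 0.28). CCND1 was not called there, at 6.81 ± 1.75 CPM against 9.67 ± 1.60 in CTRL. At IM 18h CCND1, CCND2 and CDKN1A fell and CDKN1B rose. The part of these factors in the changes of the G1 genes was not tested.

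Other cells were checked beside the imatinib results. The 8 K562 markers, which include erythroid genes, summed to 3442 to 4014 CPM in mRNA CTRL libraries and to 8038 to 11488 at IM 18h. The 4 T lymphoid markers summed to 2.36 to 3.34 CPM in CTRL and to 0.158 to 0.326 at IM 18h, mostly CD3D, with CD2 and TRAC at 0 in both groups. The 4 epithelial markers summed to 394 to 416 CPM and to 241 to 259 CPM, from EPCAM, KRT8 and KRT18, with CDH1 at no more than 0.330 CPM. Monocyte, fibroblast and megakaryocytic markers summed to 2.37 to 11.1 CPM per class in these libraries, and the megakaryocytic gene PF4 had 0 counts. Their part in the changes of the G1 genes was not tested.

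For each of the 10 genes the 2 genes most like it over the 9 mRNA group means of log2(CPM + 0.5) were found among 8720 genes, by Pearson's r as a description, since 9 points picked from so many genes allow high values. The closest were GTF2H2C (0.99) and TIMM9 (0.98) for CCND1, SLC25A32 and SLC39A14 (both 0.996) for CCND2, and SUPT6H and RAP1GAP (both 0.94) for CCND3. They were MBLAC2 and FKBP15 (both 0.96) for CCNE1, and SH3GLB1 (0.94) and HERC4 (0.92) for CCNE2. CNPY3 (0.99) and HSF1 (0.98) were closest to CDK4, and PDZD8 (0.96) and MGA (0.94) to CDK6. For the inhibitors they were PNP (0.97) and DNAJA1 (0.96) for CDKN1A, DCUN1D1 (0.98) and SECISBP2L (0.97) for CDKN1B, and FBXL20 and CCDC34 (both 0.98) for CDKN2C.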

How the data were processed

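The authors deposited raw counts of read pairs per gene for 42 short-read libraries. Per the paper's methods, reads were trimmed and deduplicated with fastp, aligned to hg38 with STAR keeping uniquely mapped reads and introns up to 10000 bases, and counted over exons with featureCounts. The labels describe strand-specific libraries and the stated counting options include none for strand, so antisense reads could be counted, and pairs in exons of more than 1 gene were dropped. Intervals and floors cover counting error only. The annotation release is not given in the sources used here. Gene symbols came from the reference name table and gene structures from GENCODE 44; 57532 of 58243 IDs were in it. No protein sequences were used here. The result of 1 listed gene is not reported here.

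Groups came from the sample titles. Genes were tested by edgeR (version 4.0.16, run in R 4.3.3) with its quasi-likelihood test and p-values adjusted by Benjamini-Hochberg, after TMM scaling and filterByExpr, with robust dispersions and 1 fit for each fraction; the authors used DESeq2, which was an alternative here (version 1.42.0). Nuclear and mRNA responses were compared by an interaction term. The SE is the log2 fold change divided by the root of F. The fits were tested on simulated data, where 88% of the 100 genes given a log2 fold change of 1 were recovered for IM 18h in mRNA (17267 genes) and 95% in nuclear RNA (20668 genes). False calls numbered 9 and 8. The changed genes were drawn only from those with a mean over 5 CPM, so the recovery does not cover CDKN1A. Libraries were simulated without pairing. Replicates of a group differed by more than sampling noise (chi-square per gene 2.37 to 62.5), so each library was 1 replicate; p-values measure the spread between these biological replicates of 1 line.

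Library deviations from group means were correlated between equal replicate numbers, over genes with a mean CPM over 10. With nuclear CTRL all were above 0.1 (0.235 to 0.891), so those numbers pair libraries, as do those of mRNA KCl 1h with KCl 3h, JTE 6h with JTE 18h and IM 6h with JTE 6h; numbers of mRNA CTRL as labelled do not (number 3 correlated from 0.0553 to 0.877, numbers 1 and 2 below 0.1). The study's supplement lists the read totals of mRNA CTRL 1 and 2 under each other's numbers. With these exchanged, every correlation was above 0.1 for each treated mRNA group (0.104 to 0.877) except number 3 of JTE 18h (0.0553), so a block with these numbers exchanged was added after seeing the data. Groups and fits without a block do not depend on it.

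The 10 genes and all lists were chosen with earlier results of these data known. Named from the lists were, for IM 18h, JTE 6h and KCl 3h in mRNA, up to 2 called genes per list in each direction, ordered by log2 fold change, if the group with the higher mean had 5 CPM or more; CDKN2A, CDKN2B and neighbours of the 10 genes were named for what the text says of them. Likeness used genes with a mean CPM of at least 10. Alternatives were DESeq2, RLE normalization, no low-count filter, a replicate block, fits of only the 2 groups, and leaving out each library. Promoter windows are from RefSeq.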

Additional observations from a re-analysis of the deposited data

Results flagged for a closer look

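In 3 cases the level of a gene under 1 treatment differed between times in a direct test of the later against the earlier group. No untreated group was matched to each time, so an effect of time in culture cannot be told apart. CCND2 was lower at IM 18h than at IM 6h in mRNA by a log2 difference of -0.73 (edgeR adjusted p 0.0024), with every IM 18h library under every IM 6h library. CCND3 was higher at JTE 18h than at JTE 6h by 0.75 (edgeR adjusted p 0.036), a call that was lost in 5 of 6 fits with 1 library left out. CDKN1A was higher at KCl 3h than at KCl 1h by 1.89 (edgeR adjusted p 0.0012), and that call held in all 6 such fits. Groups of 3 libraries are too small for the test of single outlying samples.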

How the results depend on the processing

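Across 2540 log2 fold changes under alternatives, 0 called values changed direction, 30 lost their call, 15 gained one and 2495 kept their side of the threshold, and 204 of 2232 values without a call changed sign. Counts of called genes moved by more than 1.5 times in few settings. Without the low-count filter JTE 6h had 2 called genes, with CCND1 added, where 1555 of all 40963 genes were called higher and 1437 lower. With the replicate block JTE 18h had 2 and nuclear KCl 1h had 1, in each case by adding CDKN1A. Over all genes that block called 914 of 18095 higher and 530 lower at JTE 18h. In nuclear KCl 1h it called 3584 of 21929 higher and 2099 lower. Fits of only the 2 groups also gave 2 at JTE 18h, where 744 of 15487 genes were higher and 394 lower. The block changed 1 other call, CDKN1A at IM 6h. Numbers of mRNA CTRL 1 and 2 as labelled did not track those of the treated mRNA groups, and did when exchanged. The block with them exchanged, chosen after seeing the data, gave 2 at JTE 18h, where 1018 of 18095 genes were higher and 557 lower. It changed the same calls of CDKN1A in mRNA, at IM 6h and JTE 18h, and no other. With 1 library left out, the count for JTE 18h was 0 in all 6 fits, that for IM 18h against IM 6h ran from 0 to 1, and that for JTE 18h against JTE 6h from 0 to 1. With all libraries these comparisons called 5.39%, 4.41% and 13.4% of all genes, in that order. CDKN1B was not called without the low-count filter at IM 6h (0.60) and IM 18h (0.54), nor with only the 2 groups at IM 18h (0.59). With raw library totals in place of TMM, 9 of 140 group means moved by more than 1 SD. The cause of these shifts was not tested. With 11 to 42 counts per library, CDKN1A in CTRL and IM 18h mRNA was measured with an SE of 0.44 on the log2 scale, and at IM 6h a value of -1.17 with an SE of 0.42 was not called.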

Other observations

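Further lists held genes downstream of the G1 machinery or acting on its proteins. The 20 E2F target genes had a median log2 fold change of 0.06 in mRNA at IM 18h, beside 0.04 for all genes. Of these 20, 2 were called, against 30.5% of all genes, among them CDT1, a replication licensing factor, which rose by 0.63 (SE 0.13). At JTE 6h the 1 called was RRM2, a ribonucleotide reductase subunit, at -0.85 (SE 0.15), where 13.2% of all genes were called.

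Of 18 genes for turnover and phosphorylation of cyclins and inhibitors, 1 was higher and 2 were lower at IM 18h, against 30.5% of all genes called. CDC25C, a phosphatase that activates CDK1, rose by 0.82 (SE 0.19), CDC25A, which activates CDK2, went from 119 ± 18.3 to 69.6 ± 1.65 CPM (-0.78, SE 0.13), and CKS2, a CDK-binding subunit, fell by 0.75 (SE 0.14). CDC25B, another of these phosphatases, fell at JTE 6h from 46.9 ± 4.38 to 23.5 ± 4.15 CPM (edgeR adjusted p 8.2e-06). Of 11 tested p53 target genes other than CDKN1A, 1 was higher at IM 18h, SESN1 (0.61, SE 0.11), and 2 were lower, TNFRSF10B (-2.01, SE 0.32) and ZMAT3 (-0.98, SE 0.21), a share near the 30.5% of all genes. At KCl 3h, where CDKN1A rose, the log2 fold changes of those 11 had a median of -0.09.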
